A study of Populus trichocarpa with 12 samples.

Results

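Transcript levels of 4 genes of xylan synthesis were followed in differentiating xylem, the layer of wood still forming under the bark, collected by scraping peeled stems, while Populus trichocarpa trees (black cottonwood) went without water. The genes were listed by identifier and no value was used as a criterion, but earlier results of these data were known when they were chosen. They are Potri.001G416800 (GAUT12.1) and Potri.011G132600 (GAUT12.2), which form the GAUT12 or GT8D pair, and Potri.006G131000 (GT43A) and Potri.016G086400 (GT43B), which form the IRX9 type GT43 pair. All 4 were found among the 41335 genes of the count table and among the 26943 genes that passed the filter on low counts. The names are published designations. Neither the deposited table nor the reference table used here pairs an identifier with a name or a sequence.

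The 12 libraries fall into 3 groups of 4. Day 0 plants were fully irrigated, with 74% water in the soil and 80.6% in the xylem. Plants after 5 days without watering were under mild drought, with 33% and 75.3% water. Plants after 7 days were under severe drought, with 29% and 74.3% water. All were raised in a greenhouse for 3 months. The labels name no genotype, do not say whether a library came from 1 tree, and tie no library to a planting batch. No irrigated plants of days 5 and 7 were used here, and days of drought therefore cannot be told apart from plant age and harvest day.

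Xylan is the main hemicellulose of hardwood secondary walls, where it coats cellulose and links it with lignin. Its backbone of xylose units is made in the Golgi. In Arabidopsis, GT43 proteins of the IRX9 type are needed for lengthening of the backbone. GAUT12, called IRX8 in Arabidopsis, is a member of the GT8 glycosyltransferases and is needed for a short oligosaccharide at the reducing end of the chain; its exact activity is not settled. In poplar both types are known as genes of developing wood.

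Library totals ranged from 9.35 to 19.2 M counts. The levels below are CPM (counts per 1 M counts of a library) scaled by TMM, a method that corrects for differences in library make-up. Genes published as cellulose synthases of the secondary wall, which mark xylem that is laying down wood, were present in every library. The 5 of them summed to between 2762 and 10182 CPM on day 0, between 503 and 1932 on day 5, and between 103 and 820.4 on day 7. Day 7 replicate 2 stood apart, with 820.4 CPM against 103 to 120.3 in the other day 7 libraries. Fold changes whose call or size rests on it are also given without it.

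The transcripts of GAUT12.1 were most abundant in irrigated plants and sparse after 7 days. GAUT12.1 stood at 228, 1264, 642 and 378 CPM in day 0 replicates 1 to 4. On day 5 it stood at 168, 215, 357 and 75.1 CPM in the same order of replicates. On day 7 it stood at 14.5, 40.7, 7.18 and 10.98 CPM. Day 5 overlapped with day 0, since day 5 replicate 3 lay above day 0 replicate 1, whereas every day 7 library lay below every day 5 library. The group means were 628 CPM ± 457 (SD, n = 4), 204 CPM ± 118 and 18.3 CPM ± 15.2.

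GAUT12.2, the other copy of the pair, went down over the same days from a smaller number of counts. It stood at 14.7, 112, 54.5 and 29.0 CPM in day 0 replicates 1 to 4. On day 5 it stood at 8.01, 8.70, 21.4 and 3.00 CPM. On day 7 it stood at 1.28, 2.63, 0.736 and 0.968 CPM. As with GAUT12.1, days 0 and 5 overlapped through day 5 replicate 3, and day 7 lay below all other libraries. The means were 52.6 CPM ± 43.0 (SD, n = 4), 10.3 CPM ± 7.85 and 1.40 CPM ± 0.846. Day 7 rested on 16, 33, 12 and 12 counts. For a count of 12 the exact Poisson 95% interval runs from 6.20 to 21.0, which covers counting error only.

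GT43A, an IRX9 type gene, left no overlap between any of the days. It stood at 77.7, 473, 267 and 171 CPM in day 0 replicates 1 to 4. On day 5 it stood at 12.3, 32.7, 65.0 and 8.23 CPM. On day 7 it stood at 2.07, 8.12, 4.48 and 2.18 CPM. The gap between days 5 and 7 was narrow, 8.23 against 8.12 CPM, and was set by day 5 replicate 4 and day 7 replicate 2. The means were 247 CPM ± 169 (SD, n = 4), 29.6 CPM ± 25.9 and 4.21 CPM ± 2.83.

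GT43B, its partner, had fallen clear of day 0 by day 5 but overlapped between days 5 and 7. It stood at 108, 645, 365 and 243 CPM in day 0 replicates 1 to 4. On day 5 it stood at 21.0, 51.3, 49.5 and 19.3 CPM. On day 7 it stood at 4.23, 27.0, 3.68 and 3.31 CPM. Day 7 replicate 2 lay above both day 5 replicates 1 and 4, and the other day 7 libraries lay below all of day 5. The means were 340.0 CPM ± 229 (SD, n = 4), 35.3 CPM ± 17.5 and 9.55 CPM ± 11.6.

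**Figure D1:**
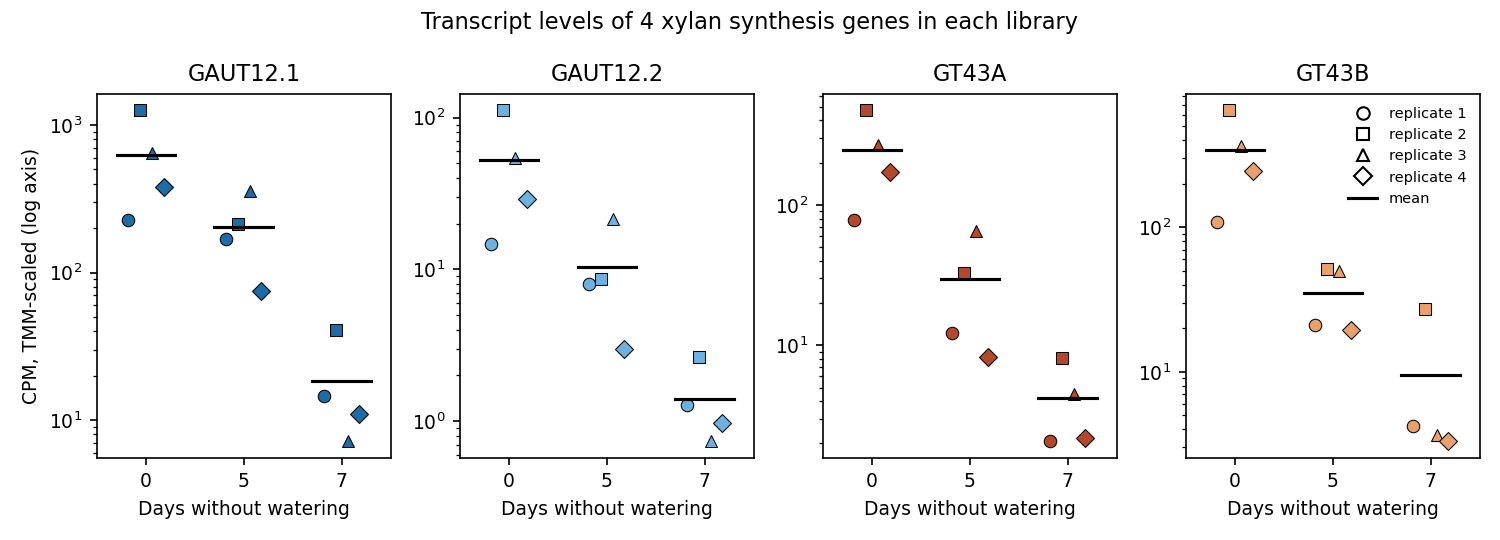
TMM-scaled CPM of GAUT12.1, GAUT12.2, GT43A and GT43B (log axes, 1 panel per gene) in each library after 0, 5 and 7 days without watering; marker shapes are replicates and bars are means of 4 libraries. Mean levels step down in all 4 panels, from 628 to 18.3 CPM for GAUT12.1 and from 247 to 4.21 CPM for GT43A, and day 7 replicate 2 is the highest day 7 library of each gene.

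Mild drought was compared with irrigation first. By day 5 both GT43 genes and GAUT12.2 had fallen, so that 3 of the 4 genes were called lower and none higher, where 28.8% of all genes tested were called lower. The 4 log2 fold changes had a median of -2.71, beside -0.01 over all genes tested. The scaling itself holds the median over all genes near 0, in this and in the later comparisons. GT43B, the furthest, fell by 3.27 on the log2 scale (SE 0.79), or 9.63-fold (edgeR adjusted p = 0.00416). GT43A fell by 3.06 (SE 0.75; edgeR adjusted p = 0.00439). GAUT12.2 fell by 2.35 (SE 0.68), or 5.10-fold (edgeR adjusted p = 0.0109). Only the GT43 pair, 2 of the 4 genes, had every day 5 library below every day 0 library, as had 27.0% of all genes.

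GAUT12.1 had a log2 fold change of -1.62 ± 0.66 (SE) on day 5, or 3.08-fold lower, and missed the threshold of 0.05 (edgeR adjusted p = 0.0522). The size of the GAUT12 changes leaned on day 0 replicate 2, the library richest in all 4 transcripts. Without it, GAUT12.1 stood at -1.02 (edgeR adjusted p = 0.193) and GAUT12.2 at -1.65 (edgeR adjusted p = 0.0429). Day 5 replicate 3 pulled the other way: without it GAUT12.1 was called lower at -2.04 (edgeR adjusted p = 0.0339), GAUT12.2 stood at -2.99 and GT43A at -3.79. GAUT12.1 was also called lower without day 0 replicate 1 (edgeR adjusted p = 0.0307), without day 7 replicate 2 (0.0292) or without day 7 replicate 3 (0.0486). In xylem RNA, fewer wood-forming cells and less of a transcript per cell cannot be told apart, which holds for every fall described here.

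Severe drought was then compared with irrigation. All 4 genes were lower on day 7, where 23.6% of all genes tested were called lower, and the 4 changes were close to each other. Their median was -5.20, or 36.7-fold lower, beside 0.03 over all genes tested. GT43A had the lowest value, -5.87 ± 0.86 (SE), or 58.5-fold lower (edgeR adjusted p = 0.00021). GAUT12.2 stood at -5.24 ± 0.80 (edgeR adjusted p = 0.000275) and GT43B at -5.16 ± 0.87 (edgeR adjusted p = 0.00051). GAUT12.1 stood at -5.10 ± 0.77, or 34.3-fold lower (edgeR adjusted p = 0.000252).

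Every day 7 library lay below every day 0 library for all 4 genes, as for 21.6% of all genes. Of the 26943 genes tested, the share that fell as far as the member or further was 0.687% for GT43A and 1.25% for GAUT12.1, with the other members between. GT43B depended most on 1 library: without day 7 replicate 2 its change was -6.47 (edgeR adjusted p = 4.57e-05). GAUT12.1 stood at -5.81 without that library. Without day 0 replicate 2, GAUT12.1 stood at -4.49 and GAUT12.2 at -4.53, and both were still called lower.

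The last comparison set severe against mild drought. GAUT12.1 had the largest fall between days 5 and 7 of the 4 genes, by 3.47 on the log2 scale (SE 0.71), or 11.1-fold (edgeR adjusted p = 0.00292). GAUT12.2 fell by 2.89 (SE 0.75; edgeR adjusted p = 0.0102) and GT43A fell by 2.81 (SE 0.76; edgeR adjusted p = 0.0121). These 3 of 4 genes were called lower, where 19.9% of all genes tested were called lower, and the median of the 4 changes was -2.85, beside 0.01 over all genes. The same 3 genes had no overlap between days 5 and 7, as had 18.6% of all genes.

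GT43B had a log2 fold change of -1.89 ± 0.76 (SE) from day 5 to day 7 and was not called (edgeR adjusted p = 0.0641). Without day 7 replicate 2 it was called lower, at -3.23 ± 0.61 (edgeR adjusted p = 0.00292), and GAUT12.1 stood at -4.22. Without day 5 replicate 3, GAUT12.2 stood at -2.25 (edgeR adjusted p = 0.0313) and GT43A at -2.08 (edgeR adjusted p = 0.0385). By limma-voom, GAUT12.2 was not called between days 5 and 7 (adjusted p = 0.0928). With the main test, GAUT12.2 and GT43A were lower in all 3 comparisons, as were 2.16% of all genes tested.

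**Figure D2:**
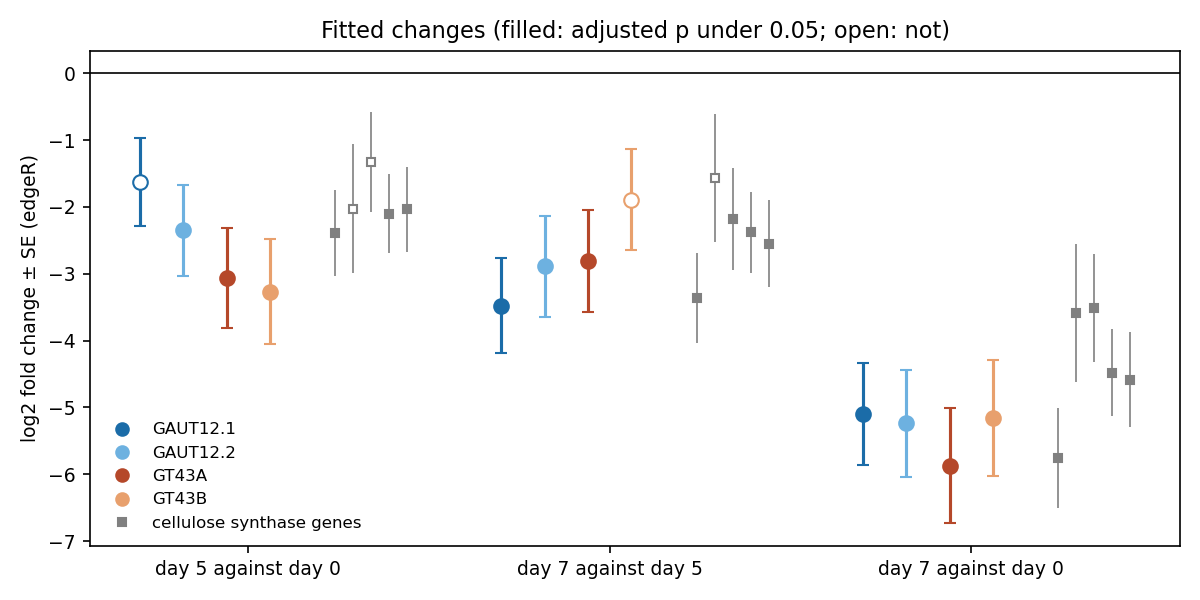
Log2 fold changes with standard errors (edgeR) of the 4 xylan genes (circles) and of 5 secondary wall cellulose synthase genes (grey squares) in 3 comparisons of days; filled symbols have adjusted p under 0.05. GAUT12.1 is open for day 5 against day 0 at -1.62, GT43B is open for day 7 against day 5 at -1.89, and all 4 genes are filled for day 7 against day 0, between -5.87 and -5.10.

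The part of the fall reached by day 5 was read from the fitted values. Of its whole log2 fall between days 0 and 7, GAUT12.1 had covered 31.9% by day 5 and GAUT12.2 had covered 44.9%. GT43A had covered 52.1% and GT43B 63.4%. Without day 7 replicate 2 these shares were 27.4%, 40.7%, 47.7% and 50.1%, in the same order of genes. Whether the second step differed from the first within a gene was tested in the same edgeR model, a test added after the values were seen. The log2 change from day 5 to day 7 minus that from day 0 to day 5 was -1.85 for GAUT12.1 (SE 1.09; edgeR adjusted p = 0.175), where a negative value means a larger fall in the second step, and was not called. This difference was -0.54 for GAUT12.2, 0.25 for GT43A and 1.38 for GT43B, none of which was called either, where 52.3% of all genes were called in one direction or the other. For GAUT12.1 the call depended on day 7 replicate 2, since without it the difference was -2.63 (SE 0.95; edgeR adjusted p = 0.0401). Without that library the difference of GT43B was 0.01, and that of GT43A turned to -0.29. The sign for GT43A also turned without day 0 replicate 2 (-0.28), day 5 replicate 1 (-0.29) or day 5 replicate 4 (-0.37), and the sign for GAUT12.2 turned without day 5 replicate 3 (0.75). Of these differences, those of GAUT12.2 and GT43A thus had no stable direction. That of GT43B kept its sign, but only at 0.01 without day 7 replicate 2.

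Copies of the GAUT12 pair were then set against each other within each library, where scaling plays no part. The ratio of GAUT12.1 to GAUT12.2 counts includes the unknown lengths of both genes, so only its change between days is compared. The ratio was 15.5, 11.3, 11.8 and 13.0 in day 0 replicates 1 to 4. It was 20.9, 24.7, 16.7 and 25.1 on day 5. It was 11.4, 15.5, 9.75 and 11.3 on day 7. Every day 5 library lay above every day 0 and every day 7 library, with GAUT12.1 giving a larger part of the pair in mild drought, and days 0 and 7 overlapped.

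The log2 ratio was 3.68 ± 0.20 (SD, n = 4) on day 0, 4.42 ± 0.27 on day 5 and 3.52 ± 0.29 on day 7. Day 5 minus day 0 was 0.75 (SE 0.17), a 1.68-fold difference, and day 7 minus day 5 was -0.90 (SE 0.20), a 1.87-fold difference. Each had an exact two-sided permutation p = 0.0286, the smallest that 4 against 4 libraries can give. Adjusted over the 6 tests of both pairs by the Benjamini-Hochberg method these became 0.0857, which missed the threshold of 0.05. With that smallest p, tests of the GAUT12 pair could not have passed unless a test of the GT43 pair had also reached it. The miss therefore says little about the GAUT12 pair. Day 7 against day 0 differed by -0.16 (SE 0.18; exact permutation p = 0.343; adjusted 0.686). Counting error limits the day 7 ratios, since 9.75 in replicate 3 had a 95% Clopper-Pearson interval from 5.38 to 19.4.

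The copies of the GT43 pair kept a nearly fixed balance in irrigated plants and a scattered one in drought. The ratio of GT43A to GT43B counts was 0.719, 0.735, 0.732 and 0.703 in day 0 replicates 1 to 4. It was 0.586, 0.637, 1.31 and 0.426 on day 5. It was 0.491, 0.301, 1.22 and 0.659 on day 7. Day 5 replicate 3 and day 7 replicate 3 were the only libraries of the 12 in which GT43A gave more counts than GT43B. In day 7 replicate 3 this rested on 73 against 60 counts. The 95% Clopper-Pearson interval of that ratio, from 0.853 to 1.74, includes equal counts of the copies. The log2 ratio spanned 0.06 over the day 0 libraries, 1.62 on day 5 and 2.01 on day 7.

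The 95% Clopper-Pearson interval of day 5 replicate 3, from 1.20 to 1.44, lay wholly above that of the next highest day 5 library, from 0.478 to 0.716 in replicate 1 and from 0.577 to 0.704 in replicate 2. These intervals cover counting error only. The mean log2 ratio was -0.47 ± 0.03 (SD, n = 4) on day 0, -0.56 ± 0.68 on day 5 and -0.76 ± 0.84 on day 7. No difference between days exceeded the spread: day 5 against day 0 gave -0.09 (SE 0.34; exact permutation p = 0.771), day 7 against day 0 gave -0.29 (SE 0.42; p = 0.6) and day 7 against day 5 gave -0.20 (SE 0.54; p = 0.743), each with an adjusted p of 0.771. The difference in scatter itself was not tested. Reads shared between the similar copies of either pair cannot be told apart with these counts, although no member had counts identical to those of another gene.

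**Figure D3:**
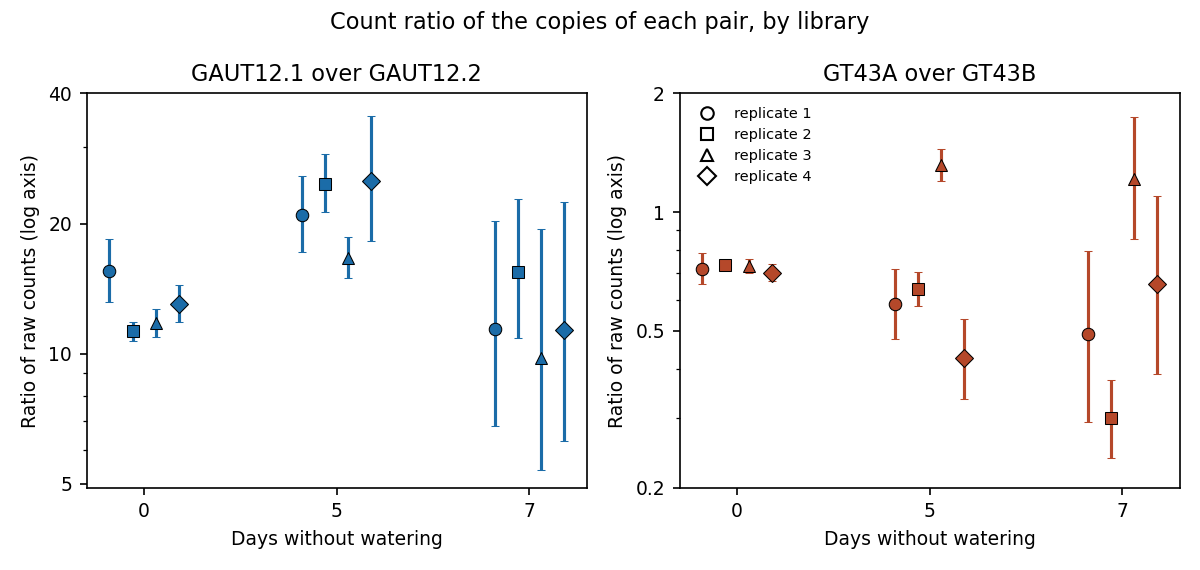
Ratio of raw counts (log axes) of GAUT12.1 over GAUT12.2 (left) and GT43A over GT43B (right) in each library after 0, 5 and 7 days without watering; bars are 95% Clopper-Pearson intervals for counting error. The GAUT12 ratio is between 16.7 and 25.1 on day 5, above all libraries of days 0 and 7, and the GT43 ratio goes from a narrow band of 0.703 to 0.735 on day 0 to a range of 0.301 to 1.22 on day 7.

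Genes of the 2 families were also set against each other within libraries, in 12 tests added after the values were seen. GAUT12.1 gave 2.93, 2.67, 2.41 and 2.22 times the counts of GT43A in day 0 replicates 1 to 4. On day 5 the same ratio was 13.6, 6.58, 5.49 and 9.13, above every day 0 library. On day 7 it was 7.00, 5.01, 1.60 and 5.04, which overlapped with both other days. The log2 ratio was higher by 1.68 (SE 0.30), or 3.21-fold, on day 5 than on day 0 (exact permutation p = 0.0286, or 0.0857 once adjusted over these 12 tests).

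Against GT43B, the GAUT12.1 log2 ratio differed by 1.59 (SE 0.28) for day 5 minus day 0 and by -1.21 (SE 0.39) for day 7 minus day 5, without overlap either time and with the same exact permutation p of 0.0286 and adjusted 0.0857. The log2 ratio of GAUT12.2 to GT43A was higher by 0.94 (SE 0.29) on day 5 than on day 0, again without overlap and with the same p. Between days 0 and 7 the 4 ratios differed by 0.38 to 0.83 on the log2 scale, all overlapping, with exact permutation p between 0.143 and 0.343. None of the 12 passed the adjusted threshold, and 4 had an unadjusted p under 0.05. Since 0.0286 is the smallest p possible, none could have passed unless most of the 12 tests had reached it.

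Within a day the 4 genes varied together from library to library. On day 0 the replicates ranked 2, 3, 4, 1 from highest to lowest CPM for each of the 4 genes, with the highest library 5.55 to 7.64 times the lowest. On day 5 replicate 4 was the lowest for each gene, and replicate 3 was the highest for all but GT43B, which was highest in replicate 2. On day 7 replicate 2 was the highest for each gene, but the lowest library was replicate 3 for GAUT12.1, replicate 1 for GT43A and replicate 4 for GT43B. Deviations of log2 CPM from the day means correlated between members with r from 0.83 to 0.97 over the 12 libraries. All genes of a library share its RNA preparation and depth, and these r are a description only. The closest pair was GAUT12.1 with GAUT12.2 and the least close was GAUT12.2 with GT43B.

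**Figure D4:**
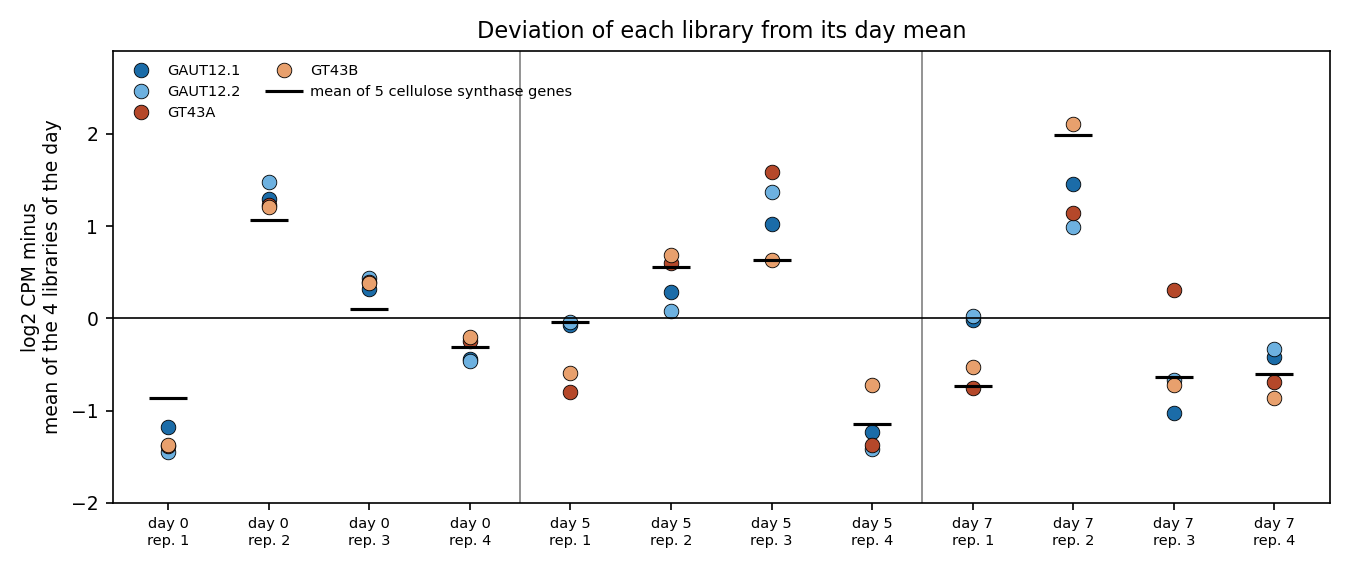
Log2 CPM of each gene minus its mean over the 4 libraries of the day, for the 4 xylan genes (circles) and, as black bars, the mean of 5 cellulose synthase genes, in the 12 libraries. The 4 genes lie together above the line in day 0 replicate 2 (1.20 to 1.48) and below it in day 0 replicate 1 (-1.45 to -1.18), and they spread more in the drought libraries, as in day 7 replicate 2 (0.99 to 2.11).

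The secondary wall cellulose synthase genes, taken as a second wall polymer, fell as well. They were Potri.002G257900, Potri.006G181900, Potri.018G103900, Potri.004G059600 and Potri.011G069600, listed by published designation. No table used here pairs these identifiers with that designation, so the list itself was not checked. On day 5, 3 of the 5 were called lower, where 28.8% of all genes tested were called lower. The median log2 fold change was -2.04, against -2.71 for the xylan genes. Each of the 5 had every day 5 library below every day 0 library, as had 2 of the 4 xylan genes and 27.0% of all genes. With only days 0 and 5 in the model, or without day 7 replicate 2, all 5 were called. On day 7 all 5 were called lower and had no overlap with day 0, with a median of -4.48 against -5.20. Of all genes, 23.6% were called lower and 21.6% were lower without overlap. From day 5 to day 7, 4 of the 5 were called lower, where 19.9% of all genes were. With single libraries left out this count ran from 3 to 5, and all 5 were called without day 7 replicate 2. It was 3 with only the 2 days compared and 5 with a replicate block. The median was -2.38 against -2.85. Between these days 2 of the 5 had no overlap, against 3 of the 4 xylan genes and 18.6% of all genes. Without day 7 replicate 2 the cellulose synthase median of the last step was -3.63 and that of the whole fall -5.28. GAUT12.1, GAUT12.2, GT43A and GT43B then stood at -4.22, -3.38, -3.32 and -3.23 for the last step. Only GAUT12.1 then fell further than the cellulose synthase median of that step, so the order of the lists rested on this library. For the whole fall the 4 xylan genes stood at -5.81, -5.69, -6.35 and -6.47. Without day 0 replicate 2 the cellulose synthase median of the whole fall was -3.84 and that of day 5 -1.47. The xylan genes, in the same order, then stood at -4.49, -4.53, -5.33 and -4.62 for the whole fall. For day 5 they stood at -1.02, -1.65, -2.52 and -2.74. The xylan medians of -2.71, -5.20 and -2.85 include all libraries. The difference between the lists was not tested.

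Cellulose synthase and xylan genes also deviated from their day means together, with r from 0.67 to 0.99 over the 20 pairs of genes. The closest was GAUT12.1 with Potri.002G257900. Day 7 replicate 2 lay above its day mean by 1.98 on the log2 scale for the cellulose synthase genes and by 1.42 for the xylan genes, on average. The part this library's wood transcripts play in the xylan values was not tested, beyond the values given without it.

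Genes with the most similar profile were sought by Pearson's r of log2 CPM across the 12 libraries among 19718 genes of at least 5 CPM on average. These r describe libraries that share the same 3 days, and the identifiers carry no names in the files. The genes closest to GAUT12.1 were Potri.004G020600 (r = 0.993), Potri.002G223300 (r = 0.992) and the cellulose synthase gene Potri.002G257900 (r = 0.991). GAUT12.2 was closest to Potri.005G061600 (r = 0.993), Potri.011G015600 (r = 0.993) and Potri.004G211900 (r = 0.992).

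Among the GT43 genes, GT43A was closest to Potri.018G052500 (r = 0.994), Potri.008G144900 (r = 0.993) and Potri.017G029000 (r = 0.993). GT43B was closest to Potri.010G067100 (r = 0.997), Potri.007G135300 (r = 0.997) and Potri.005G110000 (r = 0.993). All 12 of these had their highest mean on day 0 and their lowest on day 7, which follows from choosing them by likeness to the members. Potri.010G067100, for instance, went from 299 CPM on day 0 to 64.2 on day 5 and 18.96 on day 7. No member was among the 3 closest of another. GAUT12.2 ranked 25 for GAUT12.1 (r = 0.979) and GT43B ranked 63 for GT43A (r = 0.977).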

How the data were processed

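The authors deposited 1 table of raw read counts per gene for the 12 libraries, without normalisation. TopHat is the only tool named, per the submitters' processing notes. Which version, genome build, counting program and strand setting were used is not given in the sources used here. All count columns were matched to samples by title. The members and lists were chosen with earlier results of these data known.

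The main test was edgeR 4.0.16 (R 4.3.3): filterByExpr with a minimum count of 10, TMM scaling, a quasi-likelihood model with 1 mean per day over all 12 libraries, and Benjamini-Hochberg adjustment over the 26943 genes kept. Standard errors were obtained from the log2 fold change and the F statistic. A prior count of 2 entered log2 CPM. Count ratios, with 0.5 added to each count before taking log2, were compared by exact permutation of libraries (SciPy 1.17.1).

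Libraries of the same day always differed by more than sampling noise, with chi-square values of 12.2 to 94.5 for each degree of freedom. Where nothing says that libraries are separate trees, p-values measure the spread between these libraries.

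The alternatives tried were upper-quartile and RLE scaling, a filter of 1 CPM in 4 libraries or none, limma-voom (limma 3.58.1), DESeq2 1.42.0, only the days compared, a replicate block, a pseudocount of 2 and each library left out. The tests were tried on simulated data. Named genes were the members, the 5 cellulose synthase genes and the 3 genes closest to each member. The planned list of other xylan genes by product name was not analysed, since 0 identifiers matched the RefSeq gene table.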

Additional observations from a re-analysis of the deposited data

Results flagged for a closer look

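In day 7 replicate 2, a pair of values stood far from the other 3 libraries of their group by Dixon's test. GT43B on day 7 was at 27.0 CPM in replicate 2, while replicates 1, 3 and 4 held 3.31 to 4.23 CPM. Summed levels of the 5 cellulose synthase genes came to 820.4 CPM in that library, against 103 to 120.3 CPM. These were 2 of 21 groups of 4 libraries examined, groups that share genes and libraries; chance gives such a value in about 1 of 20 independent groups. GAUT12.1, GAUT12.2 and GT43A were also highest in day 7 replicate 2 but were not flagged by Dixon's test.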

How the results depend on the processing

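The log2 fold changes of the 4 xylan genes stayed negative in all 3 comparisons under every alternative run. The call of GAUT12.1 on day 5 against day 0 was gained with upper-quartile scaling (-1.69), DESeq2 (-1.62), only the 2 days compared (-1.60) and the replicate block (-1.47; adjusted p = 0.0332); with single libraries left out it ran from -2.04 to -1.02 (adjusted p from 0.0292 to 0.193). GT43B between days 5 and 7 was called with DESeq2 (-1.90), limma-voom (-2.42) and the replicate block (-2.30), and ran from -3.23 to -1.60 with single libraries left out. GAUT12.2 between these days lost its call with limma-voom (-2.77). The cause was not tested. The block changed no other call of a member and called all 5 cellulose synthase genes on day 5. Whether replicate numbers pair the samples was not settled. Deviations of same-numbered libraries correlated between -0.17 and 0.49, and 5 of 12 were closest to their own number. With the block, the SE for day 5 against day 0 went from 0.66 to 0.50 for GAUT12.1 and from 0.68 to 0.55 for GAUT12.2. It went from 0.75 to 0.40 for GT43A and from 0.79 to 0.44 for GT43B.

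With single libraries left out, the GT43A to GT43B log2 ratio changed sign, from -0.41 to 0.13 for day 5 against day 0, from -0.64 to 0.028 for day 7 against day 0 and from -0.55 to 0.12 for day 7 against day 5. The GAUT12.1 to GAUT12.2 ratio kept its direction, from 0.68 to 0.87 for day 5 against day 0 and from -1.04 to -0.81 for day 7 against day 5, but 3 against 4 libraries cannot go below an exact permutation p of 0.0571. A pseudocount of 2 changed no direction or call of any ratio. No count over all genes moved by more than 1.5 times. Depth limits GAUT12.2 most, at 12 to 33 counts on day 7.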
